A study of Mus musculus with 12 samples.

Results

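The genes described here are 10 heat shock genes of the mouse, chosen by name as chaperones and co-chaperones of the cytosol and of mitochondria. They are Hspa1a, Hspa1b, Hspa8, Hspb1, Hsph1, Dnajb1, Hsp90aa1, Hspd1, Hspe1 and Bag3. The rule that names them uses no measured value, but they were chosen with earlier results of these data known. They are 10 of 18194 genes that had a probe set of their own on the arrays. RNA came from BV-2 cells, an immortalized line of mouse microglia, the resident macrophages of the brain. In 4 conditions of 3 arrays each, cells received luteolin + LPS, LPS, luteolin, or were left untreated (control). Luteolin, a plant flavonoid, was given at 50 µM, and LPS (lipopolysaccharide of Escherichia coli), which activates microglia through Toll-like receptor signalling, at 50 ng/ml. All cultures were harvested after 24 h, and luteolin was dissolved in DMSO, while the labels call control cells untreated, so a solvent effect and a luteolin effect cannot be told apart.

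Heat shock proteins bind unfolded chains and help them to fold, to be kept soluble or to be handed on for degradation. Unfolded protein in the cytosol releases heat shock transcription factor from its chaperones, and the factor then binds heat shock elements in the promoters of these genes. A heat shock element is a row of inverted GAA and TTC units with a spacer between them. In macrophages and microglia the cytosolic chaperones are also known as stress markers, and Hsp90 and Hsp70 proteins assist signalling kinases.

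Values are intensities summarized per probe set, a group of probes for 1 transcript, and for genes with several probe sets the one with the highest mean is used. An intensity depends on its probes as well as on the RNA, so it was compared between arrays and not between genes. A gene was tested when its geometric mean reached 50 in at least 1 condition, which 12071 genes did. The adjusted p is that of limma over those 12071 genes, after Benjamini and Hochberg, with a threshold of 0.05. Of the 10 heat shock genes, 8 were tested. Hspa1a and Hspa1b were not, because all their probe sets lay under 50 on all 12 arrays.

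The cells carried most of the listed markers of their lineage. Of 12 microglia and macrophage markers, 8 reached 50 on all 12 arrays, namely Csf1r, Itgam, Ptprc, Spi1, Cd68, Adgre1, Trem2 and Tyrobp. Aif1, Cx3cr1, P2ry12 and Tmem119 reached 50 on some arrays only. The summed intensity of all 12 markers ran between 39960 and 55440 in luteolin + LPS cells, 44090 and 52820 in LPS cells, 45190 and 53490 in luteolin cells, and 48010 and 51370 in control cells. Of 5 fibroblast markers 0 reached 50 on all arrays, while 1 of 5 neuron markers (Rbfox3), 1 of 4 astrocyte markers (Gfap) and 2 of 3 oligodendrocyte markers (Mbp and Mag) did. The summed intensity of these 4 lists was at most 320.1 on any array. Il6, an inflammatory cytokine, served as a check of LPS treatment, with 2135, 657 and 3163 in luteolin + LPS cells, 5018, 1836 and 3041 in LPS cells, 12.2, 7.78 and 8.81 in luteolin cells, and 10.9, 25.4 and 32.9 in control cells. Every culture labelled as LPS treated was thus above every culture without LPS. Arrays of 1 condition correlated at r = 0.978 to 0.997 over all probe sets.

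**Figure D1:**
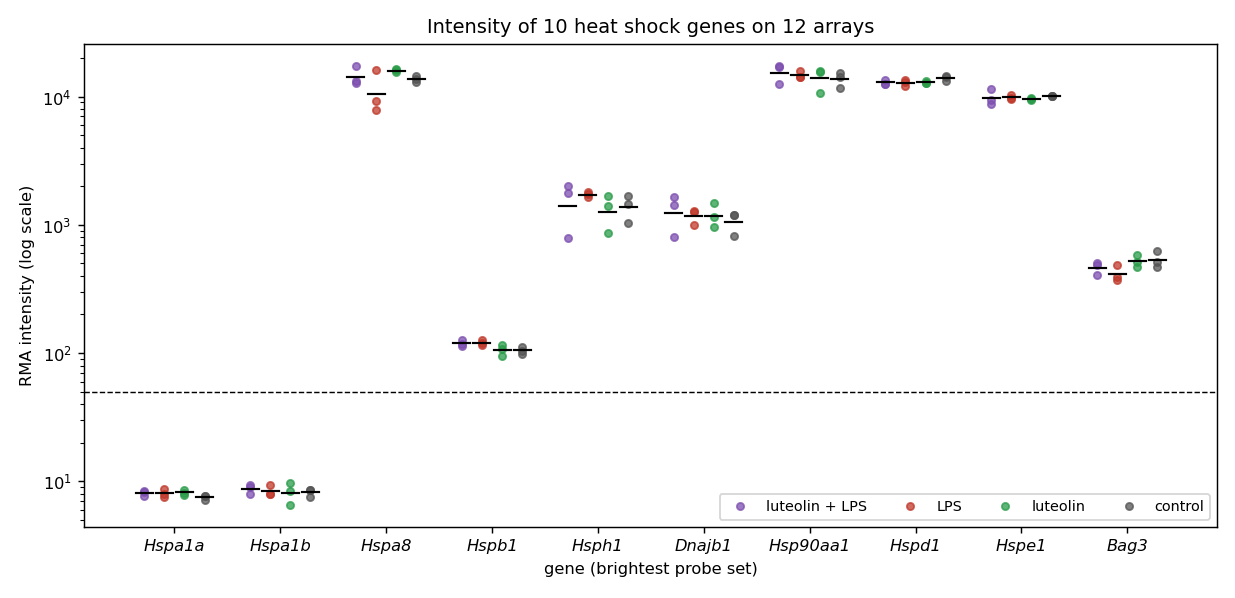
Intensity (log axis) of the 10 heat shock genes, each by its brightest probe set. Points are single arrays, in order luteolin + LPS, LPS, luteolin and control, black bars are geometric means (n = 3 arrays each), and the dashed line is the minimum of 50; intensities of different genes are not on a common scale. Hspa1a and Hspa1b lie under the line on all 12 arrays. Luteolin and control do not overlap for Hspa8, Hspd1 and Hspe1, nor LPS and control for Hspb1. Luteolin + LPS and LPS overlap for all 8 tested genes.

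None of the 8 tested genes passed the threshold in luteolin against control, where 0% of all genes did (0 of 12071, with 1097 at an unadjusted p under 0.05), nor in luteolin + LPS against LPS, where 0.505% of all genes did (61). None passed in LPS against control either, a comparison with 4.18% of all genes called (505), nor in luteolin + LPS against luteolin, with 1.81% called (218). The mean effect of luteolin over both LPS states, which pools the 2 luteolin comparisons, called 3.08% of all genes (372) and 0 of the 8. The interaction, which asks whether luteolin acted differently with and without LPS, called 0% of all genes (380 at an unadjusted p under 0.05) and 0 of the 8, with adjusted p = 0.999 for each. At an unadjusted p under 0.05 the 8 genes gave 1 call over these 6 comparisons, Bag3 in LPS against control, where 20.5% of all genes had such a p (2469).

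A fit that also took the replicate number as a block called 0.282% of all genes in luteolin against control, 4.79% in luteolin + LPS against LPS, 11.1% in LPS against control, 4.59% in luteolin + LPS against luteolin, 0% for the interaction and 10.1% for the mean effect of luteolin. None of the 8 heat shock genes was among them. The lowest adjusted p of any of the 8 in the blocked fit was 0.0729, again for Bag3 in LPS against control. The median absolute log2 fold change of the 8 was 0.09 in luteolin against control, beside 0.14 over all genes tested. It was 0.07 in luteolin + LPS against LPS, beside 0.17, and 0.18 in LPS against control, beside 0.20. The value for luteolin + LPS against luteolin was 0.15, beside 0.14. Arrays of luteolin + LPS and LPS did not overlap for 0 of the 8 genes, beside 16.1% of all genes tested.

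**Figure D2:**
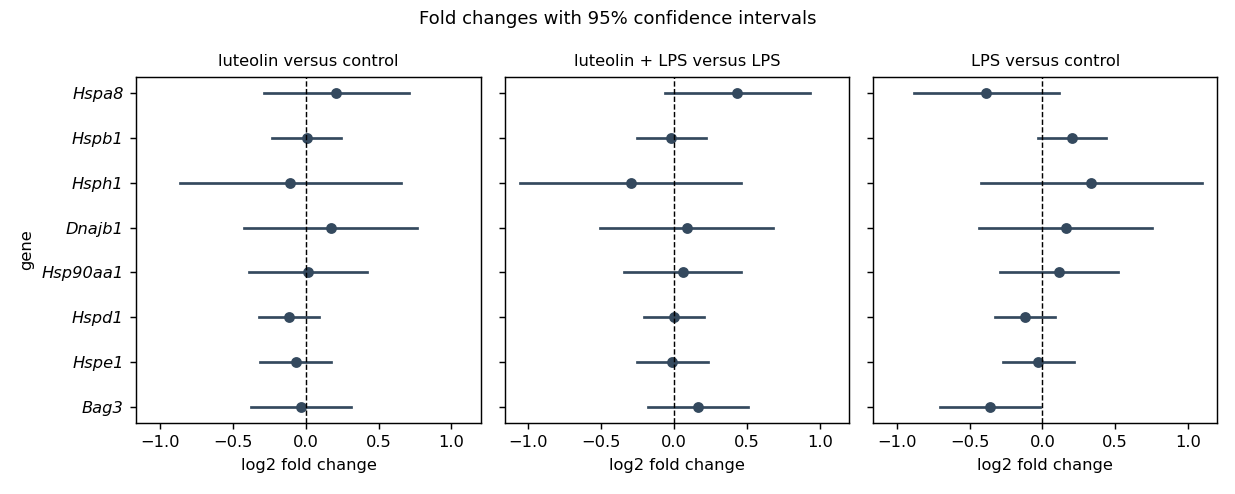
Log2 fold changes of the 8 tested heat shock genes (points) with 95% confidence intervals from limma without the replicate block (lines, 3 arrays per condition). Intervals include 0 in all 3 comparisons for each gene but Bag3, whose interval in LPS against control ends at -0.02; Hsph1 has the widest interval.

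Hspa1a and Hspa1b encode the stress-inducible HSP70 proteins, whose synthesis heat shock factor switches on in heated or poisoned cells. Hspa1a had intensities of 8.44, 7.70 and 8.27 in luteolin + LPS cells, 8.68, 7.97 and 7.60 in LPS cells, 8.17, 7.88 and 8.57 in luteolin cells, and 7.16, 7.71 and 7.72 in control cells. Hspa1b, by its brightest probe set, had 9.34, 8.03 and 9.04 in luteolin + LPS cells, 9.45, 8.02 and 8.03 in LPS cells, 6.56, 8.36 and 9.79 in luteolin cells, and 7.53, 8.50 and 8.61 in control cells. These values lay close to the lowest intensity of any probe set on any array, 4.80. They give no order of the conditions, and at this signal they show only that neither gene reached 50 in any culture.

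Both genes lie on chromosome 17 and are near-identical copies, so signal of one was not separated from that of the other. The 250 bases before the start sites were identical at 247 positions (98.8%) in RefSeq sequence (build GRCm38.p6). The stretch from the heat shock element match to the start site is printed for both, with the GAA and TTC units in capitals. It covers chr17:34972157-34972266 for Hspa1a and chr17:34959239-34959348 for Hspa1b, both on the minus strand, and the match begins 104 bases before each start site.
Hspa1a: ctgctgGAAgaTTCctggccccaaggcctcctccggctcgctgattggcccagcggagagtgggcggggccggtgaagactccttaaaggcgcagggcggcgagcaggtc
Hspa1b: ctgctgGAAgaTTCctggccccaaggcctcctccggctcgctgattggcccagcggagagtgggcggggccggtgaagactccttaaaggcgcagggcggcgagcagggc
Over these 110 bases, 109 were the same. The motif searched, GAANNTTC or its shifted form TTCNNGAA (N is any base; both forms read the same on both strands, and matches may overlap), occurred in 15.1% of 32851 promoter windows of 300 bases.

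Hspa8 encodes HSC70, the HSP70 protein that cells make without stress. Its intensities were 13263, 17191 and 12677 in luteolin + LPS cells, 16147, 9266 and 7862 in LPS cells, 15416, 16259 and 16217 in luteolin cells, and 13026, 14551 and 13822 in control cells. Replicates 2 and 3 of LPS were the lowest of the 12 arrays, while replicate 1 of LPS was as high as the luteolin cultures. Geometric means were 14240 in luteolin + LPS cells, 10560 in LPS cells, 15960 in luteolin cells and 13790 in control cells, and the SD on the log2 scale was 0.24 in luteolin + LPS cells, 0.54 in LPS cells, 0.04 in luteolin cells and 0.08 in control cells (n = 3 each).

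In LPS against control the log2 fold change of Hspa8 was -0.39 ± 0.23 (SE; adjusted p = 0.363, limma). In luteolin + LPS against LPS it was 0.43 ± 0.23 (adjusted p = 0.41), and in luteolin against control 0.21 ± 0.23 (adjusted p = 0.868). On this probe set all 3 luteolin cultures exceeded all 3 control cultures. They also did on 1420622_a_at (log2 fold change 0.185), but there the lowest luteolin array (7069.57) and the highest control array (7068.45) were nearly equal. On 1455789_x_at and 1431182_at luteolin and control overlapped, with log2 fold changes of 0.055 and 0.059. Arrays of luteolin and control did not overlap for 19.6% of all genes tested, and for 3 of the 8 heat shock genes. The mean effect of luteolin on Hspa8 over both LPS states was 0.32 ± 0.16 (adjusted p = 0.305). The comparisons with LPS cells depended on single LPS arrays. Without LPS replicate 1, the log2 fold change in LPS against control was -0.69 (adjusted p = 0.0349) and the mean effect of luteolin 0.48 (adjusted p = 0.0271), both past the threshold, and luteolin + LPS against LPS gave 0.74 (adjusted p = 0.0547). Without LPS replicate 3 the same 3 values were -0.17 (adjusted p = 0.718), 0.22 for the mean effect (adjusted p = 0.491) and 0.22 (adjusted p = 0.721).

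The other 3 probe sets of Hspa8 followed the same LPS arrays. Probe set 1455789_x_at had 13768, 8473 and 9338 in LPS cells, against 12610, 14033 and 12091 in control cells. Probe set 1420622_a_at had 7657, 4017 and 3535 in LPS cells, against 6143, 7068 and 6080 in control cells. The dim probe set 1431182_at had 77.5, 54.8 and 43.9 in LPS cells, against 64.9, 59.5 and 71.1 in control cells. In each of the 4 probe sets LPS replicates 2 and 3 were below all 3 control arrays, while LPS replicate 1 was above them in 3 probe sets and between them in 1455789_x_at. In LPS against control their log2 fold changes ran between -0.43 and -0.19. The suffix x of the used probe set marks probes that can also match other transcripts, so signal of near-identical copies was not separated. LPS replicate 1 also had the highest Il6 of the 12 arrays (5018), and the part of this in the Hspa8 values was not tested.

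**Figure D3:**
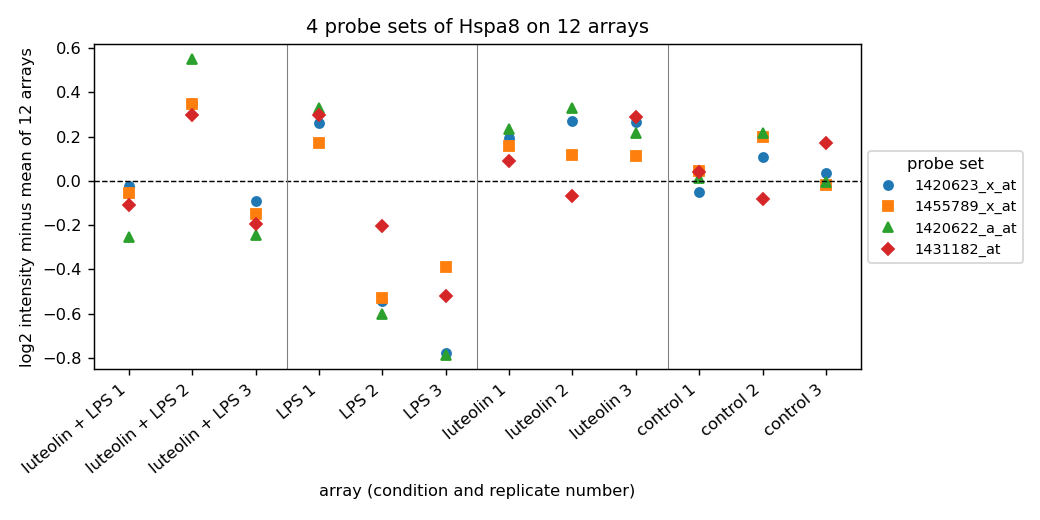
Log2 intensity of the 4 probe sets of Hspa8 on each of the 12 arrays, less the mean of that probe set over all arrays. Each column of points is 1 array; all 4 probe sets lie below their mean on LPS replicates 2 and 3 and above it on LPS replicate 1.

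Hsph1 encodes HSP110, which recharges HSP70 with ATP by nucleotide exchange, and Dnajb1 encodes HSP40, which brings substrates to HSP70 and starts its ATP hydrolysis. Hsph1 had 783, 1994 and 1764 in luteolin + LPS cells, 1656, 1789 and 1723 in LPS cells, 866, 1680 and 1401 in luteolin cells, and 1034, 1682 and 1462 in control cells. Replicate 1 was the lowest array of each condition, and the 3 LPS arrays lay close to one another. The log2 fold change of Hsph1 was 0.34 ± 0.34 in LPS against control (adjusted p = 0.62), -0.30 ± 0.34 in luteolin + LPS against LPS (adjusted p = 0.756) and -0.11 ± 0.34 in luteolin against control (adjusted p = 0.978). Its 95% interval in luteolin + LPS against LPS reached from -1.06 to 0.46, or folds of 0.481 to 1.38. With the replicate block this interval narrowed to -0.75 to 0.16 (SE 0.20, adjusted p = 0.431, limma). The second probe set of Hsph1 gave 0.43 ± 0.42, -0.31 ± 0.42 and -0.08 ± 0.42 in the same 3 comparisons.

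Dnajb1 had 809, 1436 and 1648 in luteolin + LPS cells, 994, 1259 and 1280 in LPS cells, 957, 1482 and 1155 in luteolin cells, and 813, 1194 and 1183 in control cells. Replicate 1 was again the lowest array in each condition, and the ranges of the conditions overlapped. The log2 fold change was 0.16 ± 0.27 in LPS against control, 0.09 ± 0.27 in luteolin + LPS against LPS and 0.17 ± 0.27 in luteolin against control (adjusted p = 0.777, 0.926 and 0.931). With the replicate block the SE was 0.15 in each (adjusted p = 0.499, 0.783 and 0.641, limma). The second probe set of Dnajb1, 1416755_at, disagreed in LPS against control with -0.44 ± 0.48, since it read 323 on LPS replicate 1, against 994 for the used probe set.

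In the promoter window of Hsph1 the motif matched at 3 places, and 2 of these overlap in a row of 3 units. Such rows of 3 alternating units occurred in 0.603% of the 32851 windows. The upstream match at chr5:149636337-149636386 and a site of 30 bases after the start at chr5:149636287-149636316, both minus strand, are printed to show the single pair beside the row of 3, with units in capitals.
Hsph1 upstream: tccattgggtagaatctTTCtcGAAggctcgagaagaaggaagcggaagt
Hsph1 site: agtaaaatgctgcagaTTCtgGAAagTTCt
The windows of Dnajb1, on chromosome 8, held no match.

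Bag3 encodes a co-chaperone that links HSP70 and small heat shock proteins to selective autophagy. It had 484, 407 and 504 in luteolin + LPS cells, 487, 393 and 370 in LPS cells, 579, 512 and 471 in luteolin cells, and 630, 467 and 508 in control cells. The LPS arrays were low, but LPS replicate 1 (487) was above control replicate 2 (467). The log2 fold change in LPS against control was -0.36 ± 0.16, a fold of 0.778 with a 95% interval of 0.614 to 0.988 (unadjusted p = 0.0409, adjusted p = 0.222, limma). In luteolin + LPS against LPS it was 0.16 ± 0.16 (adjusted p = 0.692), and in luteolin against control -0.03 ± 0.16 (adjusted p = 0.984). The Bag3 window held 1 match, 43 bases into the transcript; the 30 bases at chr7:128523603-128523632, plus strand, are printed with its units in capitals.
Bag3: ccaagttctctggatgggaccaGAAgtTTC

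Hsp90aa1 encodes the stress-responsive form of cytosolic HSP90, which holds kinases and steroid receptors in an activatable state. It had 12440, 17326 and 16930 in luteolin + LPS cells, 14274, 14287 and 15858 in LPS cells, 10748, 15800 and 15579 in luteolin cells, and 11685, 14280 and 15296 in control cells. Replicate 1 was the lowest array in each condition, by little in LPS cells. Its log2 fold change was 0.11 ± 0.18 in LPS against control, 0.06 ± 0.18 in luteolin + LPS against LPS and 0.02 ± 0.18 in luteolin against control (adjusted p = 0.765, 0.926 and 0.993). With the replicate block the SE was 0.115 in each (adjusted p = 0.543, 0.82 and 0.968, limma).

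Hspb1 encodes a small heat shock protein that holds unfolded chains for HSP70 and steadies actin filaments. It had 127, 113 and 117 in luteolin + LPS cells, 126, 116 and 119 in LPS cells, 95.3, 107 and 115 in luteolin cells, and 99.1, 104 and 112 in control cells. The 3 LPS arrays were above the 3 control arrays on this probe set. Arrays of LPS and control were apart for 27.6% of all genes tested. Among the 8 heat shock genes Hspb1 was the 1 gene apart in that comparison. The log2 fold change was 0.20 ± 0.11 (adjusted p = 0.314), a fold of 1.15. The second probe set of Hspb1, 1425964_x_at, overlapped, with 48.3, 56.6 and 53.4 in LPS cells, against 50.9, 52.2 and 54.9 in control cells, and the mean of both probe sets gave 0.10 (adjusted p = 0.577). In luteolin + LPS against LPS it was -0.02 ± 0.11 and in luteolin against control 0.01 ± 0.11 (adjusted p = 0.962 and 0.997). The Hspb1 promoter held 2 matches, printed with their units in capitals at chr5:135887794-135887843, plus strand.
Hspb1: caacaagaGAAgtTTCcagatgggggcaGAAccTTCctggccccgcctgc

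Hspd1 and Hspe1 encode HSP60 and HSP10, the barrel and the lid of the chaperonin that folds imported proteins in mitochondria. The genes stand head to head on chromosome 1, and their start sites are separated by 215 bases, which are printed on the plus strand (chr1:55087933-55088147) because the windows of both genes hold the same row of heat shock element units (capitals).
Hspd1 and Hspe1, between their starts: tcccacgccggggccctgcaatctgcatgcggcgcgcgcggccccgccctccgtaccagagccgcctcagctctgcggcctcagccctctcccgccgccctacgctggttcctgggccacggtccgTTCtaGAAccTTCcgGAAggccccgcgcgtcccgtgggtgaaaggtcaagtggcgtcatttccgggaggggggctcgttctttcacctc
The row of alternating units began 89 bases before the start of Hspe1, and contained 3 overlapping matches of the pair motif. A second start annotated for Hspd1 had a window with no match. In all, 7 of the 8 heat shock genes with a promoter window held the pair motif and 3 held 3 units in a row, whereas the promoters of Hspa8 and Hsp90aa1 were not analysed here. Among 50 related chaperones with a window, 15 held the pair motif and 2 held 3 units in a row, counting the best window of each gene.

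Hspd1 had 12608, 13466 and 12572 in luteolin + LPS cells, 13455, 12081 and 13091 in LPS cells, 12704, 12780 and 13286 in luteolin cells, and 14290, 13334 and 14375 in control cells. All 3 luteolin arrays were below all 3 control arrays. The difference was small: a log2 fold change of -0.11 ± 0.09, or a fold of 0.923 with a 95% interval of 0.801 to 1.06 (adjusted p = 0.796). LPS against control gave -0.12 ± 0.09 (adjusted p = 0.491), and luteolin + LPS against LPS 0.00 ± 0.09 (adjusted p = 0.997).

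Hspe1 had 8789, 11471 and 9350 in luteolin + LPS cells, 9572, 9760 and 10314 in LPS cells, 9638, 9443 and 9751 in luteolin cells, and 10098, 10035 and 10109 in control cells. On the used probe set luteolin arrays were again all below control arrays, and the highest and the lowest values were both from luteolin + LPS cells. The log2 fold change was -0.07 ± 0.11 in luteolin against control, a fold of 0.953 with a 95% interval of 0.805 to 1.13 (adjusted p = 0.932). It was -0.03 ± 0.11 in LPS against control and -0.01 ± 0.11 in luteolin + LPS against LPS (adjusted p = 0.906 and 0.98). On the dimmer probe set of Hspe1, 1422579_at, luteolin and control overlapped. It had 3687, 3775 and 3775 in luteolin cells, against 3644, 4326 and 4220 in control cells (log2 fold change -0.114). This probe set carried the same value, 3774.52, on luteolin replicates 2 and 3 and luteolin + LPS replicate 3. How these equal readings arose, and whether they are independent measurements, was not tested.

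For 3 of the 8 tested genes the replicate number, not the condition, held most of the spread. In a fit of condition and replicate number, the number accounted for 74.0% of the sum of squares of Dnajb1, 68.8% of Hsp90aa1 and 62.2% of Hsph1, and condition for 8.19%, 12% and 15% of theirs. The medians over all genes tested were 21.8% for the number and 39.4% for condition. The effect of the number passed the threshold for Dnajb1 (adjusted p = 0.0213, limma's moderated F test) and Hsph1 (adjusted p = 0.0329), and not for Hsp90aa1 (adjusted p = 0.05004). Thus 2 of 8 genes were called, beside 15.2% of all genes (1838). Condition held the larger share for Hspb1, Hspd1, Hspa8 and Bag3.

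Replicate 1 was the lowest of the 3 arrays in all 4 conditions for these 3 genes, as it was for 11.7% of all genes tested (1415). Set against the mean of replicates 2 and 3 on the log2 scale, replicate 1 of Hsph1 differed by -1.26 in luteolin + LPS cells, -0.08 in LPS cells, -0.82 in luteolin cells and -0.60 in control cells. For Dnajb1 the differences were -0.93, -0.35, -0.45 and -0.55 in the same conditions, and for Hsp90aa1 -0.46, -0.08, -0.55 and -0.34. On the used probe sets LPS cells showed the smallest difference in each of the 3 genes, a contrast between conditions that was not tested. On the second probe set of Dnajb1, 1416755_at, replicate 1 was much lower in LPS cells, at 323 beside 1114 and 1288. Bag3 ran the other way, with replicate 1 above the mean of the others by 0.09 in luteolin + LPS cells, 0.35 in LPS cells, 0.24 in luteolin cells and 0.37 in control cells, and its effect of the number had adjusted p = 0.1282. Hspa8, Hspb1, Hspd1 and Hspe1 had no common direction.

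**Figure D4:**
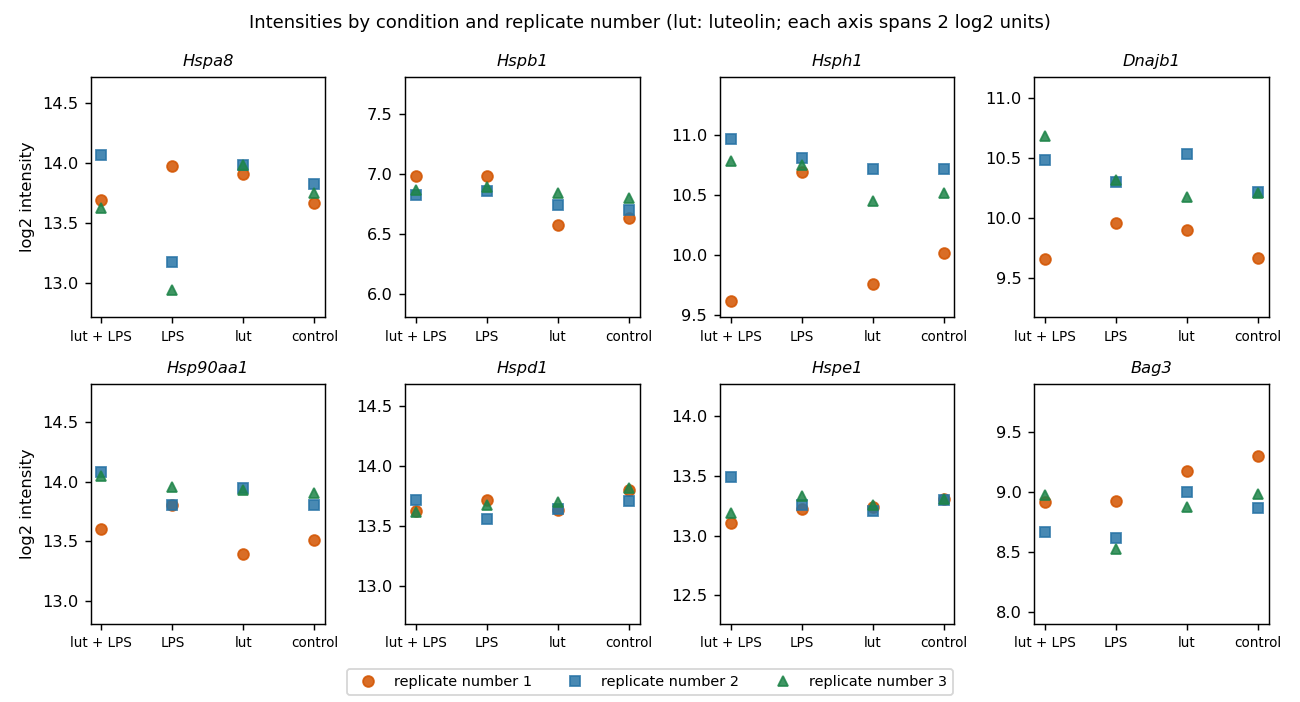
Log2 intensity of the 8 tested heat shock genes by condition (lut is luteolin), with 1 point per array and a marker for each replicate number; each vertical axis spans 2 log2 units. Replicate 1 is lowest in all 4 conditions for Hsph1, Dnajb1 and Hsp90aa1, and LPS replicates 2 and 3 are low for Hspa8.

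The same 3 genes moved together from array to array. After removal of condition means, Pearson's r over the 12 arrays was 0.92 for Hsph1 with Dnajb1, 0.92 for Hsph1 with Hsp90aa1 and 0.86 for Dnajb1 with Hsp90aa1. The 2 mitochondrial genes, which share a promoter region, had r = 0.47, beside 0.53 for Hspe1 with Hsph1 and 0.46 for Hspd1 with Hspa8. Bag3 had r = -0.55 with Hsph1, -0.54 with Dnajb1 and -0.63 with Hsp90aa1. These are descriptions over arrays that share normalization and, by number, may share an experiment. The effect of the replicate number was not removed. For Hsph1, Dnajb1 and Hsp90aa1 these values thus in part restate the low replicate 1 by which they were grouped.

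**Figure D5:**
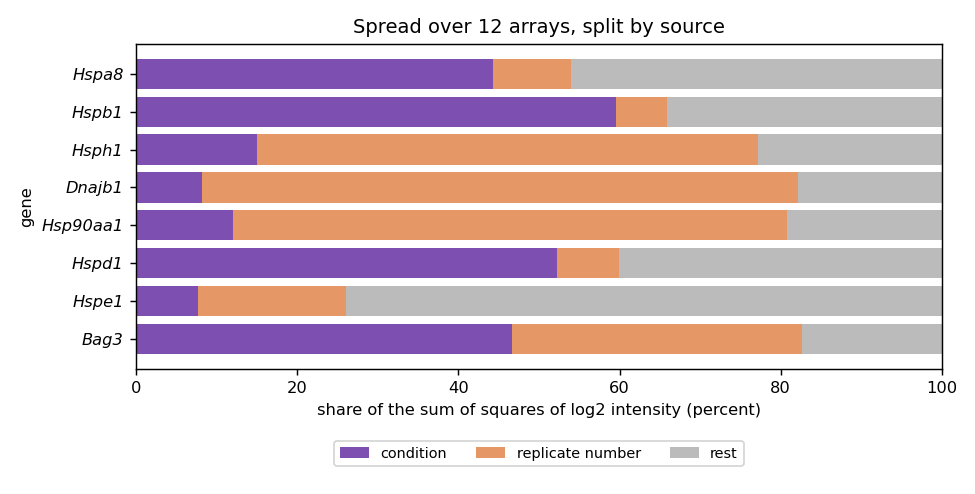
Share of the sum of squares of log2 intensity over 12 arrays that lies between the 4 conditions, between the 3 replicate numbers and in the rest, for the 8 tested heat shock genes. The number holds between 62.2% and 74.0% for Hsph1, Hsp90aa1 and Dnajb1.

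Genes whose levels followed the mean profile of the 8 heat shock genes most closely over the 12 arrays were Apex2, an endonuclease of base excision repair (r = 0.92), Psma7, a subunit of the proteasome (r = 0.91), Ppie, a peptidyl-prolyl isomerase of the spliceosome (r = 0.91), Zfp668, a zinc finger protein (r = 0.90), and Slc16a6, a transporter of the monocarboxylate family (r = 0.88). Psma7, for example, had 5579, 7355 and 6487 in luteolin + LPS cells, 6398, 5616 and 5647 in LPS cells, 5643, 6291 and 6234 in luteolin cells, and 5661, 5995 and 6247 in control cells. The genes named were the highest in a ranking of all other tested genes, so the size of r in part follows from that choice. The profile averages genes that differ. Between pairs of the 8, r over the 12 arrays ran from -0.61 (Hsph1 with Bag3) to 0.86 (Hsph1 with Hsp90aa1). The mean profile itself was highest in luteolin + LPS replicate 2 and lowest in luteolin + LPS replicate 1, at 0.78 and -0.72 SD units. Luteolin + LPS replicate 2 also had the lowest Il6 among the LPS-treated arrays (657), and the part of this in the profile was not tested.

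Related chaperones and co-chaperones outside the 10 were read from a list of 61 genes, of which 56 had a probe set and 50 were tested. Hsf1 and Hsp90ab1 were not analysed here. The list had 0 genes called in luteolin against control, luteolin + LPS against LPS, LPS against control, luteolin + LPS against luteolin and the interaction, and 6, 4, 9, 4 and 1 of the 50 in these at an unadjusted p under 0.05, which 9.09%, 14.9%, 20.5%, 11.5% and 3.15% of all genes had. Over both LPS states 1 of 50 genes was called, beside 3.08% of all genes. This was Hspa4, an HSP110 relative of Hsph1, which fell under luteolin. It had 4833, 5197 and 4820 in luteolin + LPS cells, 5643, 5765 and 5512 in LPS cells, 4320, 4567 and 4505 in luteolin cells, and 6708, 5559 and 5825 in control cells. Cultures with luteolin were below those without, in both LPS states. The mean effect of luteolin was -0.31 ± 0.07 (adjusted p = 0.0439), but the mean of all probe sets of Hspa4 gave 0.22 (adjusted p = 0.183), so the direction depended on the probe set.

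Hspa9, the HSP70 of mitochondria, was close to the threshold in the same comparison. It had 7913, 6690 and 7297 in luteolin + LPS cells, 8817, 8479 and 8635 in LPS cells, 7419, 6638 and 5834 in luteolin cells, and 9253, 8637 and 8462 in control cells, with no overlap between cultures with and without luteolin. The share of all genes without such overlap was not counted. The mean effect was -0.33 ± 0.08 (adjusted p = 0.0549), and it was called with the replicate block (adjusted p = 0.0203). It passed the threshold in 5 of 20 alternatives, the block among them, with adjusted p of up to 0.136 (limma) in the others. Dnaja1, an HSP40 of the cytosol, had a log2 fold change of -0.37 ± 0.17 in LPS against control (adjusted p = 0.244) and of -0.12 ± 0.17 in luteolin against control (adjusted p = 0.917).

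With the replicate block, LPS against control called 6 of the 50 related genes, of which 2 rose and 4 fell. The share called over all genes was 11.1%. Hspa4l, a further HSP110 relative, rose by 0.68 (adjusted p = 0.00283, against 0.266 without the block), and Sqstm1, the autophagy receptor p62, by 0.84 (adjusted p = 0.0182, against 0.0569). Hspb7, a small heat shock protein of muscle, had 2997, 1050 and 933 in LPS cells, against 4826, 3930 and 4910 in control cells, and fell by 1.66 (adjusted p = 0.0437 with the block, 0.0904 without). Bag2, a co-chaperone of HSP70, fell by 0.59 (adjusted p = 0.0261, against 0.267). With the number as a random block, which estimates the correlation, Sqstm1 and Hspb7 were called (adjusted p = 0.0177 and 0.0379), while Hspa4l and Bag2 were not (adjusted p = 0.0666 and 0.0857). In luteolin + LPS against LPS, with 4.79% of all genes called, the fixed block called Bag2 at 0.61 (adjusted p = 0.0416) and Hspa4l at -0.55 (adjusted p = 0.021). Neither was called with the random block (adjusted p = 0.115 and 0.172). In luteolin + LPS against luteolin the fixed block called 3 of 50, beside 4.59% of all genes. These were Hspa4l at 0.52 (adjusted p = 0.0139, but 0.256 with the random block), Sqstm1 at 0.77 (adjusted p = 0.0414) and Hspb7 at -1.98 (adjusted p = 0.0376). For the mean effect of luteolin the fixed block called 7 of 50, all lower, beside 10.1% of all genes. Among them were Hspa4, Hspa9, Hspa4l at -0.47 (adjusted p = 0.00598, but 0.0794 with the random block), Hspb7 at -1.29 (adjusted p = 0.0343) and Lonp1, the protease of the mitochondrial matrix, at -0.45 (adjusted p = 0.0378). By replicate number 5 of the 50 were called, beside 15.2% of all genes. Replicate 1 was the lowest on average in 3 of them, Bag2, Fkbp5 and Grpel1. In Hspa4l (adjusted p = 0.00193, limma's moderated F test) and Bag6 (adjusted p = 0.0315) replicate 1 was the highest on average.

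Chaperones of the endoplasmic reticulum, which answer to the unfolded protein response rather than to heat shock factor, were all 14 tested, and 0 were called in any of the 6 comparisons, with or without the block. At an unadjusted p under 0.05 they numbered from 0 to 3 by comparison, with 3 in LPS against control, where their median log2 fold change was 0.21, beside -0.04 over all genes tested. Of all genes 20.5% had such a p in that comparison, a share near that of 3 in 14. Hspa5, which encodes BiP, had a log2 fold change of 0.27 ± 0.11 in LPS against control (adjusted p = 0.185), -0.11 ± 0.11 in luteolin + LPS against LPS (adjusted p = 0.709) and 0.10 ± 0.11 in luteolin against control (adjusted p = 0.869).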

How the data were processed

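RNA of 12 BV-2 cultures was hybridized to Affymetrix 3' expression arrays of the mouse genome. The deposited intensities were made by the authors with RMA (background correction, quantile normalization and summary per probe set, per the study's methods and the labels) and are on a linear scale, so a shift shared by most genes cannot be seen. The labels' extraction text names another cell line (PUER) than their other fields. Of 45101 probe sets, 34958 named 1 gene, 932 several and 9211 none in the platform annotation; only the first were used, with the brightest per gene. Array medians ran from 52.2 to 56.4. Log2 values were fitted by condition with limma 3.58.1 (R 4.3.3; lmFit, eBayes), with 95% intervals, and figures were drawn with matplotlib 3.10.9 in Python 3.11.15. The fit was tested on simulated data.

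The study describes 3 independent stimulation experiments and the labels number the replicates 1 to 3. Deviations from condition means correlated between same-numbered arrays of different conditions in all 18 pairs (r = 0.101 to 0.591), so the numbers were taken to pair the arrays, and a fit with the number as a block was run beside the unblocked one. Printed SEs and intervals are those of the unblocked fit unless the block is named. The number of arrays limits the precision.

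The genes, lists and tests were chosen with earlier results of these data known. Named genes were the 10 heat shock genes, up to 3 list genes called per comparison and direction, Hsf1, Hsp90ab1, Hspa9, Hspa4, Dnaja1 and Hspa5 in any case, and the 5 genes most like the mean standardized profile. The list genes called only with the block or by replicate number stand outside this rule and were named after their values were seen. Promoter windows of RefSeq ran from 250 bases before to 50 after each start (build GRCm38.p6), and 8 of the 10 genes matched by symbol.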

Additional observations from a re-analysis of the deposited data

How the results depend on the processing

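Alternatives were the replicate number as a fixed or random block, the mean of probe sets, no minimum or a minimum of 100, only the groups compared, array weights, median centring, a trended prior, and each array left out. Another background correction was not run, since scans were not used here, and the interaction, the mean effect and the effect of the number have no value from only the groups compared. Of the heat shock genes, 0 were called in luteolin against control, luteolin + LPS against LPS, luteolin + LPS against luteolin and the interaction under each of these. With array weights 2 were called in LPS against control, Hspa8 at -0.65 (adjusted p = 0.00431) and Bag3 at -0.36 (adjusted p = 0.0314), and 1 for the mean effect of luteolin, Hspa8 at 0.41 (adjusted p = 0.0188). With arrays left out, both counts ran from 0 to 1, the 1 being Hspa8 without LPS replicate 1. The count by replicate number ran from 0 to 3: it was 0 without control replicate 1, control replicate 3 or luteolin + LPS replicate 1, and 1 without control replicate 2, luteolin replicate 1, 2 or 3, LPS replicate 3, or luteolin + LPS replicate 2 or 3.

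Some values changed sign. With arrays left out, luteolin against control ran from -0.055 to 0.078 for Hspb1, -0.309 to 0.169 for Hsph1, -0.012 to 0.321 for Dnajb1, -0.096 to 0.199 for Hsp90aa1 and -0.126 to 0.09 for Bag3. In luteolin + LPS against LPS the ranges were -0.065 to 0.016 for Hspb1, -0.551 to 0.123 for Hsph1, -0.119 to 0.395 for Dnajb1, -0.027 to 0.212 for Hsp90aa1, -0.044 to 0.034 for Hspd1 and -0.124 to 0.068 for Hspe1, and in LPS against control -0.023 to 0.278 for Dnajb1. Median centring gave -0.026 for Hspb1 and -0.015 for Hsp90aa1 in luteolin against control. The mean of probe sets gave 0.065 for Hspb1 in luteolin + LPS against LPS (0.005 with array weights), -0.139 for Dnajb1 in LPS against control and 0.221 for the mean effect on Hspa4, which was past the threshold in 7 of 20 alternatives. The causes were not tested.

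The replicate block changed no call of the 8 heat shock genes. Over all genes it raised the counts of calls to 34 in luteolin against control, 578 in luteolin + LPS against LPS, 1338 in LPS against control, 554 in luteolin + LPS against luteolin and 1220 for the mean effect, and the interaction stayed at 0. Array weights gave 962, 292, 1950, 592 and 1767 in the same comparisons, and 5 for the interaction. With arrays left out the counts ran from 0 to 1, 11 to 142, 197 to 661, 69 to 303 and 62 to 520. With only the groups compared, luteolin + LPS against LPS called 0 genes, LPS against control 306 and luteolin + LPS against luteolin 101.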
